A study of Sus scrofa with 6 samples.

Results

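Expression of antigen processing genes and their transactivators was followed in jejunal tissue of weaned piglets, all labelled Large White x Landrace. The jejunum lies between duodenum and ileum. There were 3 libraries from piglets without transport (controls 1 to 3) and 3 from piglets after transport (transports 1 to 3). All 6 samples carry the note healthy in the labels. No age, sex, journey length or sampling time is stated in the labels, and no agent other than transport. The set comprised 10 genes chosen by symbol: NLRC5, CIITA, B2M, TAP1, TAP2, TAPBP, PSMB8, PSMB9, PSMB10 and CD74. The deposited table holds 24358 genes, of which 9 of the 10 carry their symbol there. The row of TAP2 carries only its identifier, ENSSSCG00000025593, which the gene name reference pairs with TAP2. All 10 passed the filter for testing, which asked 3 or more of the 6 libraries to reach 1 FPKM (read count corrected for transcript length and sequencing depth), as did 12012 genes in all.

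Cells show fragments of their proteins to T cells on major histocompatibility complex (MHC) molecules, which are called SLA in the pig. For class I, the proteasome cuts cytosolic proteins, the TAP transporter carries the peptides into the endoplasmic reticulum, and tapasin helps load them onto a heavy chain paired with beta-2-microglobulin. For class II, the invariant chain CD74 guards the peptide groove until the molecule reaches the endosome. NLRC5 and CIITA are related NLR family proteins that switch on the class I and the class II genes, respectively, and interferon gamma induces both of them as well as the immunoproteasome. In the small intestine, macrophages, dendritic cells and B cells carry class II, and enterocytes can do so as well.

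Total counts ran from 48208451 to 53739246 per library, and the lowest count of any of the 10 genes in any library was 507, so counting error is small beside the spread between libraries. Transport 3 stood apart, as the median of its correlations with the other libraries, across genes and on log2 CPM (counts scaled to library size), was 0.818, where the others had 0.888 to 0.930. It carried the ileal gene FABP6 at 6836 FPKM, against 2.83 to 13.8 in the other 5 libraries. FABP6 was 1 of a list of 7 ileal symbols. Of the 5 tested, 3 had a log2 fold change above 0 after transport and 2 below, with a median of 0.24. Without transport 3 all 5 were below 0, with a median of -0.36. Transport 3 also had the highest sum of B cell markers, given below with CIITA. Control 2 had little smooth muscle RNA, with 8.56 FPKM of MYH11 against 200 to 643 elsewhere. The samples are whole tissue, in which fewer cells of a type and less RNA per cell cannot be told apart.

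None of the 10 genes passed an adjusted p of 0.05 in edgeR's quasi-likelihood test, in either direction, against 0.0167% of all genes tested that passed as higher after transport and 0% as lower. At an unadjusted p under 0.05, edgeR gave NLRC5 and CIITA as higher and none of the 10 as lower, against 3.52% and 1.61% of all genes. Neither passed that unadjusted threshold without control 2, and CIITA did not without control 1, without transport 3 or with sample weights. Of the 10 genes, 7 had a log2 fold change above 0, where 56.9% of all genes did. Their median log2 fold change was 0.28, against 0.07 over all genes tested. NLRC5, CIITA and CD74 were higher in every transport library than in any control, which held for 6.25% of all genes. None of the 10 was lower without overlap, against 5.33% of all genes. Without transport 2 the median turned to -0.07, and TAP2, TAPBP and B2M were lower without overlap, as were 11.8% of all genes.

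**Figure D1:**
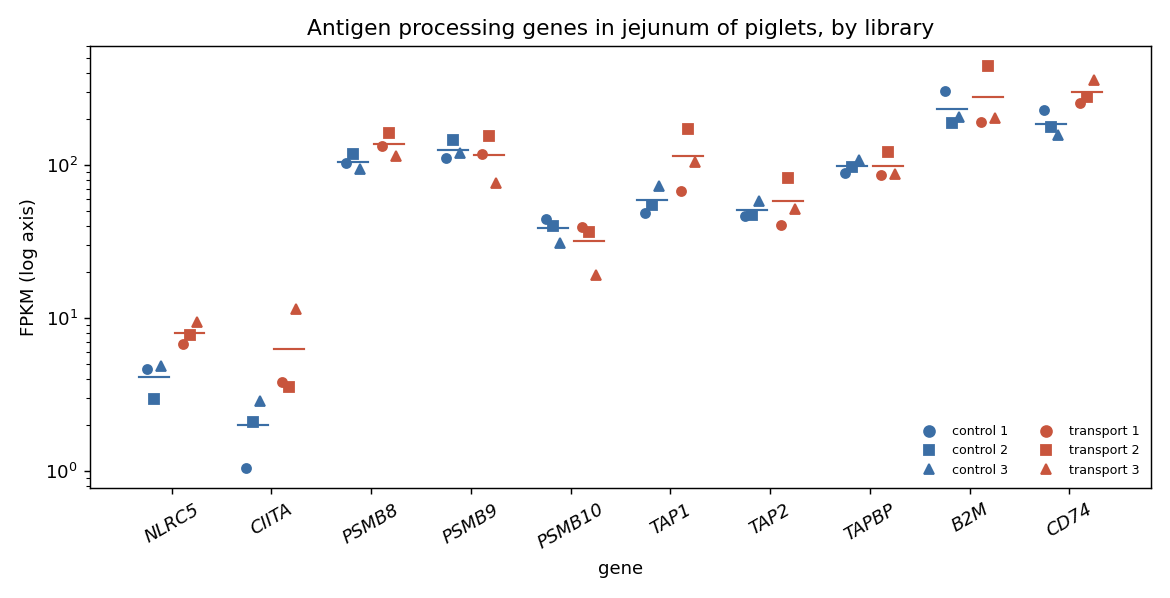
FPKM (log axis) of the 10 genes in each library, with controls in blue, transports in red, a marker shape for each replicate number and a line at the mean of each group. NLRC5, CIITA and CD74 do not overlap between the groups and are highest in transport 3. Transport 2 is the highest library for PSMB8, PSMB9, TAP1, TAP2, TAPBP and B2M, and control 1 for PSMB10.

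NLRC5, the transactivator of class I genes, lies on the plus strand of chromosome 6 from 18932637 to 19036843 and has 5 transcripts in the table. It had 4.63, 2.95 and 4.84 FPKM in controls 1 to 3 and 6.75, 7.69 and 9.34 in transports 1 to 3. Every transport library was above every control, with control 2 the lowest of all. Its log2 fold change of 0.87 had a standard error of 0.27 and a 95% interval of 0.23 to 1.52 (edgeR adjusted p = 0.890). Leaving out any 1 library gave 0.70 to 0.99, at adjusted p-values in edgeR from 0.534 upward.

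CIITA, the transactivator of class II genes, lies on the minus strand of chromosome 3 from 32172214 to 32230780 and has 9 transcripts. It had 1.05, 2.10 and 2.88 FPKM in controls 1 to 3 and 3.81, 3.51 and 11.5 in transports 1 to 3. Transports 1 and 2 lay just above control 3, and transport 3 was far above all other libraries. Its log2 fold change of 1.54 had a standard error of 0.54 and an interval of 0.27 to 2.82 (edgeR adjusted p = 0.890). Without transport 3 it was 0.85, and without control 2 as well 0.95, with no overlap between the groups in either case. B cell markers moved with the value in transport 3. The 9 B cell marker genes in the table summed to 19.5 to 21.0 FPKM in controls, to 22.9 and 19.0 in transports 1 and 2, and to 872 in transport 3. None of the 9 was at 0 in all libraries, and their part in the CIITA level of transport 3 was not tested.

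PTPRC encodes CD45, a protein of all white blood cells, and was meant as a gauge of leukocyte RNA. It had 2.52, 2.38 and 4.11 FPKM in controls and 2.27, 4.95 and 65.8 in transports 1 to 3. The ratio of CIITA to PTPRC in FPKM was 0.415, 0.881 and 0.700 in controls and 1.68, 0.709 and 0.175 after transport. The ratio of NLRC5 to PTPRC was 1.84, 1.24 and 1.18 in controls and 2.98, 1.55 and 0.142 after transport. Both ratios were lowest in transport 3 and highest in transport 1. In transport 1 PTPRC was below every control and did not follow the T and NK cell markers. Those summed to 165 FPKM there, against 96.2 to 102 in controls, while the myeloid markers, at 222, lay within the controls (122 to 295). How well PTPRC gauges leukocyte RNA in each library was not tested. The group means of the log2 ratios differed by -0.10 for CIITA and by -0.68 for NLRC5, with exact two-sided permutation p-values of 1 and 0.9. Without transport 3 the differences were 0.78 and 0.63 (exact permutation p = 0.4 for each). With 3 libraries against 3, the smallest p such a test can give is 0.1.

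CD74 encodes the invariant chain, the chaperone of class II molecules and a target of CIITA. It lies on the minus strand of chromosome 2 from 151399969 to 151409841, and 2285 bases of its model overlap the opposite-strand gene TCOF1, so that some reads are uncertain if the counting did not use strand. It had 229, 177 and 156 FPKM in controls and 257, 277 and 363 in transports 1 to 3. The groups did not overlap, with transport 1 closest to control 1. Its log2 fold change of 0.59 had a standard error of 0.32 and an interval of -0.16 to 1.34 (edgeR adjusted p = 0.890). It was 0.44 to 0.78 with any 1 library left out. CD74 thus spanned a range of 2.32-fold over the 6 libraries, where CIITA spanned 11.01-fold.

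The class II chains themselves were described from a list of 22 symbols of the class II pathway, with 20 genes tested. None passed an adjusted p of 0.05 in edgeR. At an unadjusted p under 0.05 there were 4 higher and none lower, against 3.52% and 1.61% of all genes. Of the 20, 17 had a log2 fold change above 0, with a median of 0.60, where 56.9% of all genes did. The 4 with the smallest p were SLA-DMA, SLA-DQB1, SLA-DRA and SLA-DQA1. SLA-DRA, the invariant alpha chain of the DR molecule, had 235, 136 and 188 FPKM in controls and 190, 612 and 524 in transports 1 to 3. SLA-DQA1, the DQ alpha chain, had 75.7, 37.1 and 106 in controls and 83.2, 250 and 206 after transport. In both genes transport 1 lay within the controls, and transports 2 and 3 were above all of them. SLA-DQB1, the DQ beta chain, was the only gene of the list without overlap, where 6.25% of all genes were higher without overlap. It had 103, 37.7 and 105 in controls and 137, 195 and 186 after transport. SLA-DMA, a chain of the DM molecule that exchanges peptides on class II, had 15.4, 12.8 and 21.8 in controls and 17.2, 35.6 and 73.6 after transport, so that transport 1 overlapped the controls. Log2 fold changes of these 4 were 1.19 for SLA-DRA, 1.27 for SLA-DQA1, 1.03 for SLA-DQB1 and 1.25 for SLA-DMA, each at an edgeR adjusted p of 0.890. SLA-DRA was at 0.78 without transport 2, and SLA-DMA at 0.67 without transport 3.

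The other members of the list, grouped here by role with their values known, overlapped between the groups. The 7 transcription factor subunits that bind MHC promoters (RFX5, RFXAP, RFXANK, NFYA, NFYB, NFYC and CREB1) had log2 fold changes from -0.07 for NFYC to 0.85 for RFX5. The 5 lysosomal proteases (CTSS, CTSL, CTSB, CTSH and LGMN) had values from -0.35 for LGMN to 0.48 for CTSB. RFX5, the large subunit of the complex that binds the X box, had 4.93, 7.58 and 10.03 FPKM in controls and 8.19, 9.43 and 25.9 after transport. On the FPKM scale transport 3 alone was above the controls, and on the CPM scale transport 2 was as well. The transcription factor subunit NFYC, which binds the Y box of MHC promoters, had 18.1, 17.5 and 21.6 FPKM in controls and 19.7, 17.0 and 20.2 after transport (log2 fold change -0.07). The cysteine protease CTSS, which cleaves the invariant chain, had 29.7, 39.0 and 54.5 in controls and 22.7, 62.9 and 47.5 after transport (0.07). RFX5, NFYC and CTSS were picked with their values known. The median of the list was 0.31 without transport 3, 0.86 without transport 1 and 0.32 with sample weights. Between 1 and 8 of its genes were higher without overlap with any 1 library left out, the most without transport 1, when 15.6% of all genes tested were. With the replicate block 6 were, against 14.5% of all genes. SLA-DOB, below the filter, had 0.292 to 0.630 FPKM in controls and 0.517, 0.677 and 2.98 after transport.

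**Figure D2:**
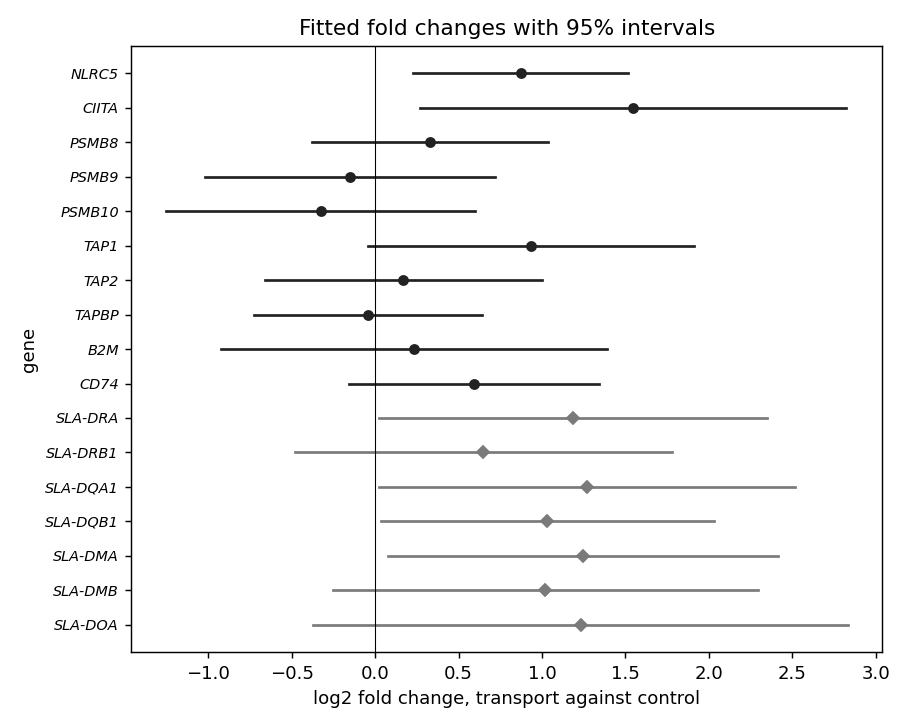
Log2 fold change of transport against control from edgeR for the 10 genes (black circles) and 7 class II chain genes (grey diamonds), with 95% intervals. These are not adjusted for the number of genes tested. The intervals of NLRC5 and CIITA lie above 0, from 0.23 and 0.27, while those of the other 8 genes of the set include 0. Without control 2 both include 0, from -0.068 and -0.0068.

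The immunoproteasome subunits PSMB8, PSMB9 and PSMB10 take the places of the catalytic subunits PSMB5, PSMB6 and PSMB7 when interferon or immune cells call for it. PSMB8 had 103, 118 and 94.99 FPKM in controls and 134, 163 and 116 in transports 1 to 3. Transport 3 lay within the controls, and transports 1 and 2 were above them. PSMB9 had 111, 145 and 120 in controls and 118, 155 and 76.0 after transport, with the highest and the lowest library both among the transports. PSMB10 had 44.4, 40.04 and 31.1 in controls and 39.6, 36.6 and 19.0 after transport, and overlapped in 2 of the 3 transports. Log2 fold changes were 0.33 for PSMB8, -0.15 for PSMB9 and -0.33 for PSMB10, with intervals of -0.38 to 1.03, -1.02 to 0.72 and -1.26 to 0.60 (edgeR adjusted p = 0.906, 0.969 and 0.924). PSMB8 was at 0.12 without transport 2. PSMB10 was at -0.059 without transport 3, -0.074 with sample weights and -0.19 without control 1. It was lower without overlap without control 3 and with the replicate block, as were 8.51% and 12.5% of all genes. The 3 fitted values differed in sign, and the ratio of PSMB8 to PSMB10 was 2.33, 2.96 and 3.06 in controls and 3.39, 4.45 and 6.07 after transport. That ratio was picked after the values were seen and was not tested.

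Set against its constitutive counterpart in the same library, PSMB8 was 10.03, 8.69 and 7.90 times the FPKM of PSMB5 in controls and 12.2, 16.7 and 16.9 times in transports 1 to 3. The groups did not overlap. The controls had a log2 ratio of 3.14 ± 0.17 (SD, n = 3) and the transports one of 3.92 ± 0.27, a difference of 0.77 with an exact two-sided permutation p of 0.1, the smallest possible, and 0.5 adjusted over the 5 ratios tested. The difference was 0.69 to 0.93 with any 1 library left out. PSMB5 itself had 12.0 ± 1.66 FPKM in controls and 9.19 ± 2.12 after transport (SD, n = 3), with a log2 fold change of -0.43.

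The ratio of PSMB9 to PSMB6 was 3.29, 3.87 and 2.75 in controls and 3.12, 4.72 and 2.81 after transport, and that of PSMB10 to PSMB7 was 0.345, 0.272 and 0.207 in controls and 0.300, 0.300 and 0.156. The groups overlapped in both, with log2 differences of 0.08 and -0.16 (exact permutation p = 0.8 and 0.7, adjusted p = 1 for each). PSMB8 and PSMB9 exceeded their counterparts in all 6 libraries, while PSMB10 was below PSMB7 in all 6.

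The 14 constitutive subunits of the 20S core had log2 fold changes from -0.55 to 0.31. None passed in edgeR, also at an unadjusted p under 0.05, 3 had a log2 fold change above 0, and the median was -0.12. The median ran from -0.27 without transport 2, with 1 of 14 above 0, to -0.038 without transport 3, with 5 above 0. It was -0.061 with limma, with 6 above 0, and -0.011 without both control 2 and transport 3. PSMB3, a beta subunit without catalytic activity, had the smallest p, at 26.7, 25.1 and 26.9 FPKM in controls and 21.6, 19.0 and 15.2 after transport. It was 1 of 3 subunits that were lower without overlap on the CPM scale, with PSMA7 and PSMB7, against 5.33% of all genes. PSMB7 overlapped on the FPKM scale.

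**Figure D3:**
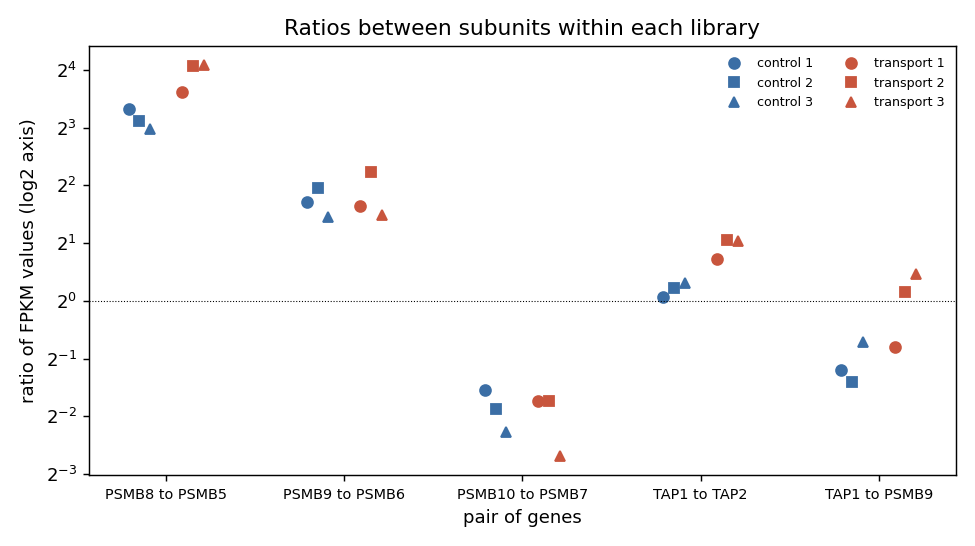
Ratios of FPKM between pairs of genes within each library (log2 axis), with controls in blue, transports in red and a dotted line at 1. The ratios of PSMB8 to PSMB5 and of TAP1 to TAP2 are higher in all transport libraries than in any control.

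TAP1 and TAP2 form the peptide pump of the endoplasmic reticulum, and TAPBP encodes tapasin, which bridges the pump and class I. TAP1 had 48.4, 55.0 and 72.9 FPKM in controls and 67.6, 171 and 105 in transports 1 to 3. Transport 1 lay below control 3, and transport 2 was the highest library. Its log2 fold change of 0.93 had a standard error of 0.41 and an interval of -0.04 to 1.91 (edgeR adjusted p = 0.890), and 0.43 without transport 2. TAP2 had 46.4, 47.1 and 58.5 in controls and 40.8, 82.9 and 51.5 after transport, with transport 1 the lowest library and transport 2 the highest. The log2 fold change of TAP2 was 0.17 with an interval of -0.66 to 1.001, and -0.26 without transport 2. TAPBP varied least of the 10 genes, by 1.40-fold over the 6 libraries, with 89.5, 97.7 and 107 FPKM in controls and 86.3, 121 and 87.6 after transport (log2 fold change -0.04, interval -0.73 to 0.64).

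Although their products pair in equal numbers, TAP1 and TAP2 differed in pattern. Their FPKM ratio was 1.04, 1.17 and 1.25 in controls and 1.65, 2.07 and 2.04 in transports 1 to 3, without overlap between the groups. TAP1 and PSMB9, which share a promoter region between them in humans, also differed: the ratio of TAP1 to PSMB9 was 0.436, 0.379 and 0.608 in controls and 0.574, 1.11 and 1.39 after transport, with transport 1 below control 3. Both ratios were picked after the values were seen, so they are descriptions with no test.

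These genes stand close together on chromosome 7, and their models in the table overlap. TAP2 runs on the minus strand from 25045174 to 25056863, PSMB8 on the minus strand from 25053132 to 25073046, TAP1 on the minus strand from 25062771 to 25072038 and PSMB9 on the plus strand from 25071712 to 25077233. The PSMB8 model, with 4 transcripts, contains the whole of TAP1 and shares 3732 bases with TAP2 and 1335 with PSMB9. TAP1 and PSMB9 overlap head to head by 327 bases. Reads of the 4 genes may therefore be divided in ways that depend on a counting method for which no source was used here, and their separate values are uncertain to that extent. PSMB10, on chromosome 6 from 28540808 to 28547597, overlaps PSKH1 on the opposite strand over 3245 bases and contains CTRL, which had a count of 0 in all 6 libraries.

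B2M encodes the light chain that all classical class I molecules share. Its row on chromosome 1, minus strand, from 126834580 to 126872431 had 7 transcripts, and the RefSeq pig gene table of assembly Sscrofa11.1 lists 2 neighbouring genes of that symbol, so the row may pool the reads of near-identical copies. It had 303, 188 and 207 FPKM in controls and 191, 445 and 203 in transports 1 to 3. Transport 2 was the highest library, control 1 the second, and the other 4 lay close together. The log2 fold change was 0.23 with an interval of -0.92 to 1.39 (edgeR adjusted p = 0.960), and -0.37 without transport 2.

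The heavy chains of class I could be read only in part. A single row, ENSSSCG00000001229, described in the table as a class I antigen alpha chain, spans chromosome 7 from 22823841 to 22962547 and encloses the separate row of SLA-5, so it may hold the reads of several class I genes. The row was picked with its values known. It had 90.3, 96.7 and 66.5 FPKM in controls and 149, 350 and 122 in transports 1 to 3, without overlap and again highest in transport 2. Its log2 fold change was 1.26, standard error 0.54 (edgeR adjusted p = 0.890). SLA-7 and SLA-8, less polymorphic class I genes, had log2 fold changes of 0.10 and 0.21, and SLA-5 of -0.49.

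The wider class I loading list of 20 symbols had 15 genes tested, none past an adjusted p of 0.05 in edgeR. Of these, 6 had a log2 fold change above 0, and the median was -0.07. It was -0.63 without transport 2, -0.12 without transport 3, -0.20, -0.19 and -0.32 without controls 1, 2 and 3, and 0.0031 without both control 2 and transport 3. At an unadjusted p under 0.05 none was higher and 2 were lower, against 3.52% and 1.61% of all genes. Both belong to the lectin chaperone cycle of the endoplasmic reticulum. The chaperone CALR had 367, 579 and 669 FPKM in controls and 169, 250 and 211 after transport, and its partner PDIA3 had 348, 544 and 634 in controls and 335, 286 and 253. Neither overlapped between the groups, where 5.33% of all genes were lower without overlap. DESeq2 called CALR alone in this list (adjusted p = 0.0311, log2 fold change -1.42), where it called 23 of all 12012 genes tested as lower. The trimming peptidase ERAP2 had 7.56, 11.6 and 10.4 in controls and 10.3, 13.2 and 23.1 after transport, and the neonatal Fc receptor gene FCGRT 112, 129 and 127 in controls and 88.7, 114 and 52.4. Without transport 3 their log2 fold changes of 0.57 and -0.56 became 0.23 and -0.30.

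Interferon gamma is the main known inducer of the 10 genes, and the messages of its pathway were read beside them. IFNG itself was below the filter, at 0.0416, 0.138 and 0.219 FPKM in controls and 0.248, 0.357 and 0.157 in transports 1 to 3. Of 20 tested genes of the interferon gamma list, 16 had a log2 fold change above 0, with a median of 0.58, where 56.9% of all genes did. Of the 20, 6 were higher without overlap, against 6.25% of all genes. None passed an adjusted p of 0.05 in edgeR. At an unadjusted p under 0.05 there were 7 higher and none lower, against 3.52% and 1.61% of all genes. Without transport 2 the number above 0 was 10 of 20 and the median 0.22, and the median was 0.94 without transport 1. It was 0.27 to 0.36 with a mean FPKM of at least 5, limma, quantile normalization, sample weights or the replicate block.

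The 4 genes with the smallest p in that list were CXCL11, NLRC3, IRF9 and CXCL10. CXCL10, a chemokine for activated T cells, had 3.60, 3.95 and 8.01 FPKM in controls and 6.20, 54.6 and 29.5 after transport. CXCL11, which acts on the same receptor, had 0.433, 0.736 and 0.817 in controls and 1.21, 8.64 and 3.21. Transport 2 was the highest library for both, as it was for PSMB8, PSMB9, TAP1, TAP2, TAPBP and B2M. NLRC5, CIITA and CD74 were highest in transport 3, and PSMB10 in control 1. NLRC3, an NLR protein that dampens innate signalling in mice, had 0.896, 0.649 and 0.507 in controls and 1.94, 1.51 and 14.5. IRF9, a subunit of the interferon-activated complex ISGF3, had 16.3, 12.9 and 27.2 in controls and 32.2, 55.3 and 43.7. CXCL11, NLRC3 and IRF9 did not overlap between the groups, with transport 3 highest for NLRC3 and transport 2 for CXCL11 and IRF9. Log2 fold changes were 2.53 for CXCL10, 2.70 for CXCL11, 2.95 for NLRC3 and 1.19 for IRF9 (edgeR adjusted p = 0.890 for each). Without transport 2 CXCL10 was at 1.64 and CXCL11 at 1.58, and without transport 3 NLRC3 was at 1.29.

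IRF1, an interferon-induced transcription factor that acts on CIITA, TAP1 and PSMB9 in humans, had 81.8, 89.6 and 78.0 FPKM in controls and 78.1, 156 and 41.9 after transport. Its highest library was transport 2 and its lowest transport 3, the same libraries that were highest and lowest for PSMB9. TAP1 was also highest in transport 2, but had 105 FPKM in transport 3, above every control. CIITA was highest in transport 3, where IRF1 was lowest. The part of IRF1 in these levels was not tested. IRF1 had a log2 fold change of 0.13, -0.57 without transport 2 and 0.48 without transport 3.

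**Figure D4:**
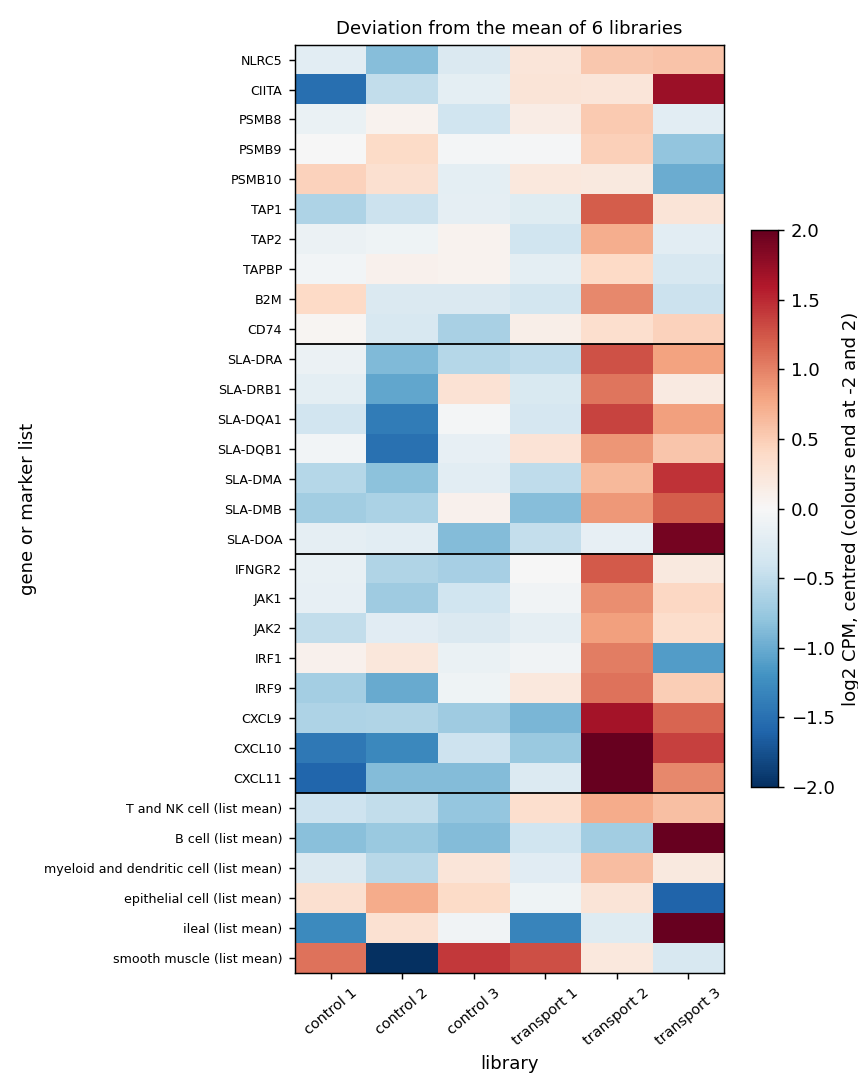
Deviation of log2 CPM from the mean of the 6 libraries (colour, ending at -2 and 2) for the 10 genes, 7 class II chain genes and 8 interferon genes, and for the mean of the tested genes of 6 marker lists. Transport 2 is the highest library for PSMB8, PSMB9, TAP1, TAP2, TAPBP, B2M, the DR and DQ chain genes and the 8 interferon genes. It is also highest for the T and NK and the myeloid lists. Transport 3 is highest for NLRC5, CIITA, CD74, SLA-DMA, SLA-DMB, SLA-DOA and the B cell (3.55) and ileal (2.61) lists, and control 1 for PSMB10.

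Markers of the cells that could carry these genes were set beside them. The 17 tested rows of the T and NK cell list all had a log2 fold change above 0, with a median of 0.97, where 56.9% of all genes did. Of the 17, 11 were higher without overlap, against 6.25% of all genes. None passed an adjusted p of 0.05 in edgeR. At an unadjusted p under 0.05 edgeR gave 12 as higher, against 3.52% of all genes. At an adjusted p under 0.05 DESeq2 called 3 (CD4, CD3D and PRF1), where it called 27 of all 12012 genes tested as higher. The 17 rows summed to 96.2 to 102 FPKM in controls and 165 to 269 after transport. The 14 myeloid and dendritic cell markers in the table summed to 122 to 295 FPKM in controls and 222 to 415 after transport, highest in transport 2 and overlapping between the groups. Of the 12 tested, 9 had a log2 fold change above 0, with a median of 0.54 that was 0.20 without transport 2 and 0.32 without control 2. The 10 epithelial markers summed to 3861 to 5524 FPKM in controls and 935 to 3096 after transport, lowest in transport 3, and all 10 had a log2 fold change below 0, with a median of -0.61. Without transport 3, 1 of the 10 was above 0 and the median was -0.23. Without control 2 as well, 3 were above 0 and the median was -0.037. No marker of these lists was at 0 in all libraries. The epithelial cadherin CDH1 had 80.9, 128 and 135 FPKM in controls and 63.7, 48.4 and 41.8 after transport, while EPCAM had 108, 136 and 112 in controls and 39.5, 136 and 26.0. The part of these cell types in the levels of the 10 genes was not tested.

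Per length, the order of the 10 genes by their median over the 6 libraries ran from CD74 (243 FPKM) and B2M (205) through PSMB9 (119), PSMB8 (117), TAPBP (93.6), TAP1 (70.2), TAP2 (49.3) and PSMB10 (38.1) to NLRC5 (5.80) and CIITA (3.20). CD74 was above B2M in 2 of 6 libraries. PSMB9 was above PSMB8 in 3 of 6, and this split followed the groups: the ratio of PSMB8 to PSMB9 was 0.932, 0.817 and 0.792 in controls and 1.14, 1.05 and 1.52 in transports 1 to 3. The ratio was picked with its values known and was not tested. PSMB8 was above TAPBP in 5 libraries, TAPBP above TAP1 in 4 and NLRC5 above CIITA in 5. B2M above PSMB9, TAP1 above TAP2, TAP2 above PSMB10 and PSMB10 above NLRC5 held in all 6.

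The genes whose profiles over the 6 libraries lay nearest to the transactivators were taken by the smallest mean absolute difference of centred log2 CPM. For NLRC5, among 8913 genes with a symbol and enough spread, these were IL7R, the interleukin-7 receptor chain of T cells, at a difference of 0.10, then RF00015, BMP3 and MARCH9 at 0.11 to 0.12. IL7R had 1.93, 1.15 and 1.67 FPKM in controls and 2.56, 3.58 and 3.57 after transport. Of the other 9 genes of the set, CD74 was nearest to NLRC5, at 0.26, but only at rank 278 against the 8913 genes. For CIITA, among 4925 genes, the nearest were SBNO1, CHSY1, CD69 and DYRK1A at 0.19 to 0.24. CD69, an early activation marker of lymphocytes, had 0.823, 0.881 and 1.92 in controls and 2.37, 2.46 and 9.16 after transport. NLRC5 was the nearest gene of the set to CIITA, at 0.53, but only at rank 559 against the 4925 genes. These are likenesses over 6 libraries only.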

How the data were processed

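Total RNA of jejunum was extracted with Trizol and made into Illumina libraries, per the labels' protocols. Nothing in the labels says that the 3 samples of a group are different animals. The p-values therefore describe sample-to-sample spread, part of which may be technical. Y-linked EIF1AY and KDM5D had 0 counts in control 3 and 2450 to 3139 in the other libraries. Per the file headers, the deposited table gives whole-number counts per gene and, as computed by the authors, FPKM. A count of 0 is written as 0.0001 FPKM and was read as 0. Aligner, counting tool, strand use and build: not given in the sources used here. Coordinates are those of the table. Transport columns have a prefix of their own and were matched by group and replicate number. No column of values per sample was left unmatched.

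Of 6907 bare identifiers, 951 took a symbol from a gene name reference, and 7 list genes were matched by the table's descriptions. Of 149 list symbols, 135 were found. Counts were fitted with edgeR 4.0.16 in R 4.3.3 (TMM scaling, quasi-likelihood test, group only, Benjamini-Hochberg adjustment over all genes tested). The common biological coefficient of variation was 0.473. Standard errors come from the F statistic. Overlap was judged on TMM-scaled log2 CPM with a prior count of 2. Log2 FPKM ratios were tested by exact permutation (scipy 1.17.1). Fits were tested on data simulated at a lower coefficient of variation than that of these libraries. That test therefore does not give the recovery or the share of false calls to be had here. Alternatives used limma 3.58.1 and DESeq2 1.42.0, other filters and scalings, a replicate block and each library left out. The genes named were the 10 members, up to 4 of each pathway list with the smallest p, a few fixed genes, of which 1 is not reported here, and 4 genes nearest to each transactivator. Also given are FABP6, MYH11, EPCAM, CDH1, SLA-5, SLA-7, SLA-8 and SLA-DOB, which fall outside this rule, as do the genes and ratios marked as picked with values known. Members and lists were chosen with earlier results of these data known.

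Deviations from the group mean correlated across genes between libraries of equal replicate number with r = 0.217, 0.111 and 0.187, and with -0.261 to 0.101 between others. Every r at equal number was above 0.1, the rule for taking the numbers to pair the libraries. Control 1 with transport 2 also had an r of 0.101, so the rule does not set equal numbers apart from others. Whether the libraries are paired is thus not settled. The main fit used the group only, and the replicate block was an alternative. What a number marks is not stated in the labels.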

Additional observations from a re-analysis of the deposited data

How the results depend on the processing

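With 3 libraries a group, an adjusted p above 0.05 for these genes does not show that they were alike, and the intervals give what remains possible. No alternative gave any of the 10 genes an adjusted p under 0.05. NLRC5, CIITA, CD74, TAP1 and PSMB8 kept a log2 fold change above 0 in every alternative that tested them, and CIITA was not tested at a mean FPKM of at least 5. NLRC5 ran from 0.64 to 0.99, CIITA from 0.85 to 1.84 and CD74 from 0.44 to 0.84. The lowest adjusted p of NLRC5 was 0.264, in DESeq2. The cause of the shifts below was not tested.

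Over all genes, calls were 27 higher and 23 lower in DESeq2, 4 higher with sample weights, and 1 higher with a mean FPKM of at least 5, with limma on log2(FPKM + 1) or on log2(FPKM + 0.1), and without both control 2 and transport 3, an alternative chosen after seeing the data. With 1 library left out they were 0 to 2 higher and 0 to 1 lower. With the replicate block, 5 of the 10 genes were higher without overlap, when 14.5% of all genes were, and it changed no call. With 1 library left out, 3 to 4 were higher without overlap, when 8.47% to 15.6% of all genes were. In these settings 0 to 3 were lower without overlap, the 3 without transport 2, when 8.26% to 12.6% of all genes were. The median of the 10 ran from -0.070 to 0.45.

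Directions turned as follows, in log2. Without both control 2 and transport 3 the values were 0.27 for PSMB9, 0.020 for PSMB10 and 0.11 for TAPBP, and the ratios of PSMB10 to PSMB7, NLRC5 to PTPRC and CIITA to PTPRC were 0.17, 0.55 and 1.02. Without transport 3, PSMB9 was 0.090 and TAPBP 0.062, and those 3 ratios 0.16, 0.63 and 0.78. Without transport 2, TAP2 was -0.26, B2M -0.37 and the ratio of PSMB9 to PSMB6 -0.15. TAPBP was 0.04 without transport 1. PSMB9 was 0.0033 and CIITA to PTPRC 0.14 without control 2, PSMB10 to PSMB7 0.02 without control 1, and PSMB9 to PSMB6 -0.05 without control 3. With any 1 library left out, PSMB9 ran from -0.48 to 0.090, PSMB10 from -0.51 to -0.059, TAP2 from -0.26 to 0.37, TAPBP from -0.30 to 0.062, B2M from -0.37 to 0.50, PSMB9 to PSMB6 from -0.15 to 0.23, PSMB10 to PSMB7 from -0.35 to 0.16, NLRC5 to PTPRC from -1.56 to 0.63, and CIITA to PTPRC from -0.85 to 0.78.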
